A study of Takifugu obscurus and Periophthalmus magnuspinnatus and Gallus gallus with 6 samples.

Results

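Among 5182 barcodes that passed the depth minimum in fugu spinal cord, 123 were taken as T or NK-like lymphocytes, 72 of 2610 in library 1 and 51 of 2572 in library 2. A barcode stands for a droplet that should hold 1 cell, and each unique molecular identifier (UMI) for a captured RNA molecule. Barcodes with more than 3000 UMIs were kept. A lymphocyte barcode carried at least 1 UMI of cd3g/d, a chain of the CD3 complex, or of prf1.1, a perforin, with 0 UMIs of the leukocyte receptor gene flt3 and fewer than 5 UMIs of the connexin gene gjb1a and of the glial glutamate transporter gene slc1a2b. Barcodes taken by this rule therefore made up 2.76% of library 1, with an exact Clopper-Pearson 95% interval of 2.17 to 3.46%, and 1.98% of library 2, with an interval of 1.48 to 2.60%. The mean share was 2.37% ± 0.549 (SD, n = 2 libraries). The intervals cover counting error only.

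T cells read antigen through a receptor that signals into the cell by the CD3 chains and the kinases lck, zap70 and itk. Cytotoxic T cells and natural killer (NK) cells kill by releasing perforin and granule peptides, and NK cells need no antigen receptor to do so. Both are known in bony fishes, where T cells patrol the blood, the mucosa and, in small numbers, the brain and cord.

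The cells came from the rostral spinal cord, at the level of the pectoral fin, of juvenile fugu about 1 month after hatching. The animals were Takifugu obscurus in the sample labels and a hybrid of T. obscurus and T. rubripes in the methods, and their reads were mapped to T. rubripes. Several animals were pooled in each of the 2 libraries, so a library is the unit of replication and animals cannot be separated, and cells freed with pronase were sorted as live by propidium iodide exclusion. The libraries, made with 10x 3′ chemistry, held 25763932 and 25721131 UMIs, shared 0 kept barcodes and named 15198 of 21383 genes by symbol. All p-values below come from these 2 pools alone. The spread of each gene was estimated with information shared across genes, so a small p-value does not stand for many replicates.

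As cd3g/d and prf1.1 chose the lymphocyte barcodes, their levels are given as a description. The lymphocytes of library 1 held 0 to 16 UMIs of cd3g/d with a median of 5.5, and those of library 2 held 0 to 12 with a median of 1. For prf1.1 the median was 4 UMIs in both libraries, with a highest value of 20 in library 1 and 14 in library 2. As CPM (UMIs scaled to a total of 1000000 in the summed lymphocytes), cd3g/d stood at 852 and 465 and prf1.1 at 797 and 783 in libraries 1 and 2. The perforin gene thus stood at a like level in both pools, and cd3g/d was lower in library 2. Both genes were found together in 45 and 23 barcodes, prf1.1 alone in 19 and 21, and cd3g/d alone in 8 and 7.

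**Figure D1:**
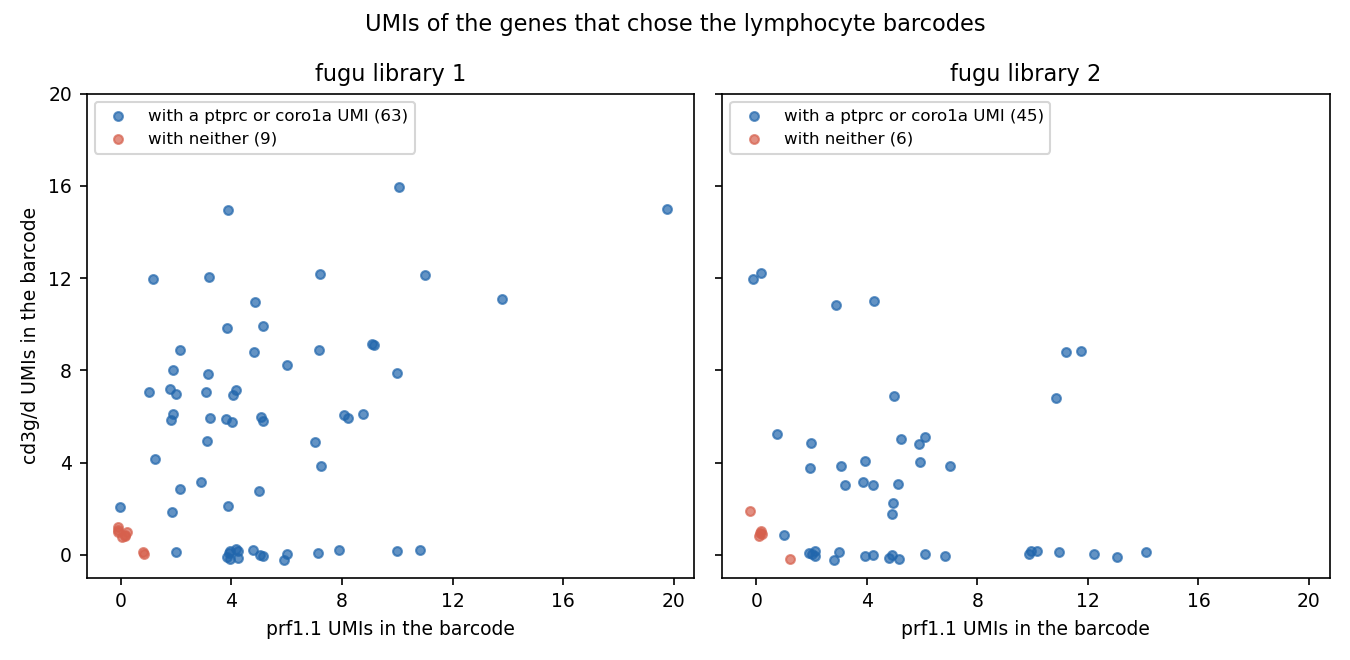
UMIs of prf1.1 (x axis) and cd3g/d (y axis) in each of the 72 and 51 lymphocyte barcodes of libraries 1 and 2, with a small random shift so that points at the same whole number can be seen. The barcodes with neither ptprc nor coro1a (9 and 6) lie near the origin, and prf1.1 runs along the x axis at 0 cd3g/d in both libraries.

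The rule left out 51 of the 174 kept barcodes with a UMI of either gene, 24 for flt3, 17 for gjb1a and 11 for slc1a2b, some for more than 1 reason. Of the 24 with flt3, 12 held a single UMI of it. Among the 51, 26 held at least 2 UMIs of cd3g/d and prf1.1 together, and 30 carried the leukocyte genes ptprc or coro1a. The shares above may thus miss lymphocytes, which was not tested. No lymphocyte barcode held 3 or 4 UMIs of gjb1a and no barcode left out held 5 or 6. For slc1a2b, 2 lymphocyte barcodes held 3 or 4 UMIs and 3 barcodes left out held 5 or 6. On the side of the lymphocyte genes, 14 of 123 barcodes entered on a single UMI of cd3g/d and prf1.1 together.

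The label was checked against genes that the rule did not use. Of the 123 barcodes, 108 (87.8%) carried ptprc, the CD45 phosphatase of all leukocytes, or coro1a, a leukocyte coronin. They were 63 of 72 in library 1 (exact 95% interval 77.6 to 94.1%) and 45 of 51 in library 2 (76.1 to 95.6%). These intervals cover counting error only. The 108 included all 68 with both rule genes and 37 of 40 with prf1.1 alone, but 3 of 15 with cd3g/d alone. Of these 108, 61 of 63 and 44 of 45 also held cd3e, itk or the T and NK cell transcription factor gene tbx21. The same 3 genes were found in 0 of 46 and 1 of 55 barcodes that met the rule's limits on flt3, gjb1a and slc1a2b and carried ptprc or coro1a without cd3g/d or prf1.1. In the lymphocytes cd3e went with cd3g/d and tbx21 with prf1.1. The low counts in the 46 and 55 barcodes are thus partly set by their choice and are a description. Those barcodes held a median of 1877.5 and 1836 genes.

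The other 15 barcodes went against the label. They held 0 UMIs of cd3e, itk, tbx21, lck and fcer1g, 14 of the 15 had entered on a single UMI, and all 15 held at least 5 UMIs of a list of neuron, astrocyte or oligodendrocyte genes. The median number of genes per barcode was 2551 (1397 to 4621) in these 15 and 961.5 (675 to 1840) in the 108. A list of 26 pan-leukocyte genes reached 0 to 8 UMIs in the 15, with a median of 1, and 10 to 96 in the 108, with a median of 28. In barcodes with 100 UMIs or fewer, which hold mostly free RNA, cd3g/d gave 0.0711 and 0.114 UMIs and prf1.1 0.0670 and 0.0965 UMIs for each 5000 UMIs. These are rates within those barcodes, and how much free RNA a kept barcode held was not estimated. The 15 barcodes stayed in the main comparisons because the rule takes them, and values for the 108 alone, a choice made after seeing the data, are given beside the lists that change most. The 108 alone made up 2.41% of library 1 and 1.75% of library 2.

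**Figure D2:**
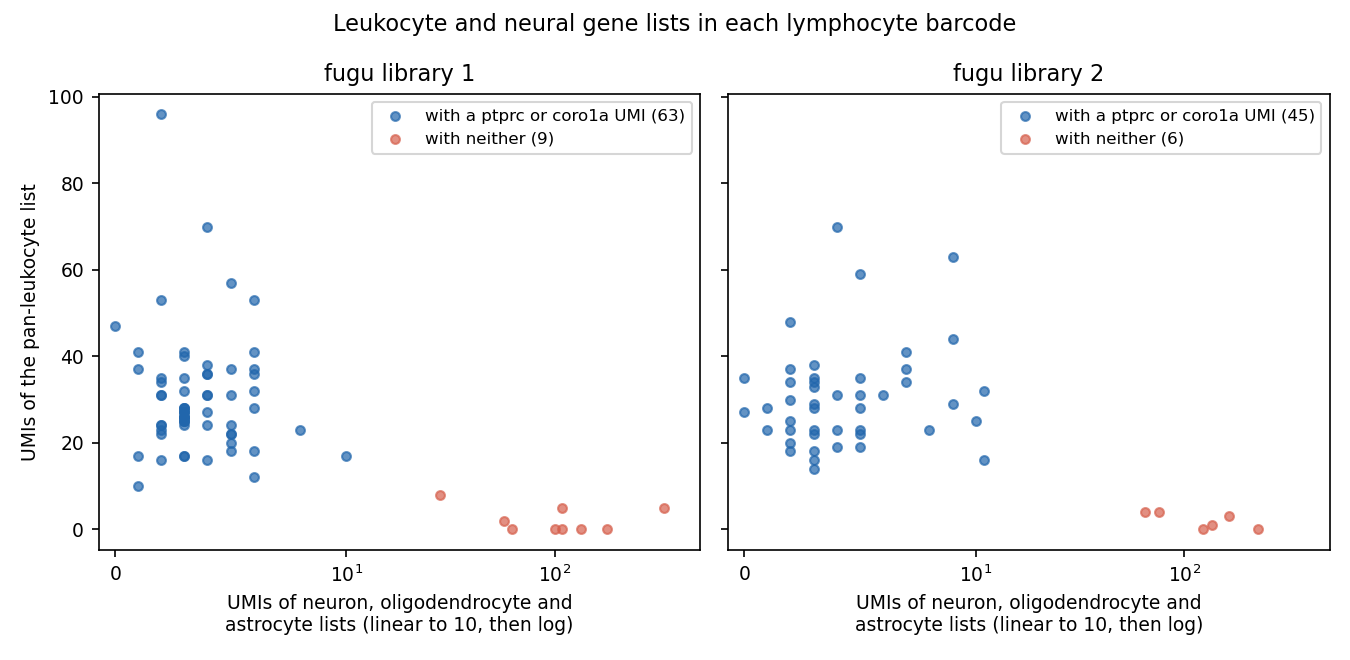
UMIs summed over the pan-leukocyte genes (y axis) against those summed over neuron, oligodendrocyte and astrocyte genes (x axis, linear to 10 and log above) in each lymphocyte barcode of the 2 libraries. The 63 and 45 barcodes with ptprc or coro1a sit at 10 or more leukocyte UMIs, and the 9 and 6 with neither sit at 8 or fewer and far to the right.

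The main comparison set the lymphocytes against 1710 criteria-matched barcodes (892 and 818), which met the same limits on flt3, gjb1a and slc1a2b but had neither cd3g/d nor prf1.1. Of these, 633 and 572 held at least 5 UMIs of the astrocyte and radial glia list. UMIs were summed per library and group and tested with edgeR's quasi-likelihood test with Benjamini-Hochberg adjustment over 6967 genes. The 5 genes of the rule were left out of the test. At an adjusted p under 0.05, 901 genes were higher in lymphocytes (12.9% of those tested) and 387 were lower (5.55%). With the library as a replicate block, 778 were higher and 254 lower, and with the 108 leukocyte barcodes alone 1315 and 1968. TMM scaling, which sets the bulk of genes level between groups, moved the median of all genes by 1.15 on the log2 scale against plain totals, which gave 588 higher and 4290 lower, so changes are relative to the bulk of genes. A gene enters the test with a UMI in 10% of the barcodes of either group, so a listed gene that entered through the lymphocytes alone had to be higher, and list counts are read as descriptions.

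Genes of the T cell receptor complex and its signalling were among the largest differences. Of the receptor and co-receptor list the files name cd3g/d, cd3e and cd4-1, and cd3e was the only other gene tested. The CD3 epsilon gene cd3e stood at 331 and 172 CPM in lymphocytes of libraries 1 and 2 and at 1.76 and 0 CPM in matched barcodes. The log2 difference was 9.22 (SE 0.703, adjusted p = 0.00012, edgeR). All 12 tested genes of the signalling list were higher, with a median log2 difference of 5.11 beside -0.11 for all genes tested. The Tec kinase gene itk, which acts below the receptor, stood at 331 and 258 CPM against 0.705 and 0.766 (log2 difference 9.72, SE 0.357, adjusted p = 1.4e-05, edgeR). For the Src kinase gene lck the values were 57.6 and 79.6 against 0.529 and 0.383 CPM, a log2 difference of 8.21. The adaptor genes sh2d1ab (9.06) and lcp2a (5.36), the kinase gene prkcq (6.50) and the exchange factor gene VAV1 (4.86) were higher as well on the log2 scale.

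The same genes were compared barcode by barcode. A UMI of cd3e was found in 61.1% and 43.1% of lymphocytes, and in 0.164% and 0.273% of the 1217 and 1100 barcodes with at least 5 UMIs of gjb1a, which are oligodendrocyte barcodes by that gene and should lack it. The median depth was 5419.5 and 5209 UMIs in lymphocytes and 5158 and 5217 UMIs in gjb1a-high barcodes. With each barcode thinned to 3000 UMIs, the cd3e share was 50.0% and 27.5%. For itk the share was 69.4% and 70.6% (48.6% and 52.9% thinned) beside 0.329% and 0.364% in gjb1a-high barcodes. The co-receptor gene cd4-1 was nearly absent, with UMIs in 3 and 0 lymphocytes.

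The kinase gene zap70 did not mark the lymphocytes in this tissue. Its UMIs were found in 11 of 72 and 9 of 51 lymphocytes but in 400 of 1217 and 352 of 1100 gjb1a-high barcodes, where it reached 120 and 136 CPM against 36.0 and 41.4 CPM in lymphocytes. Against matched barcodes, from which gjb1a-high ones are removed, it was higher in lymphocytes by 4.66 on the log2 scale (SE 0.522, adjusted p = 0.00086, edgeR).

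**Figure D3:**
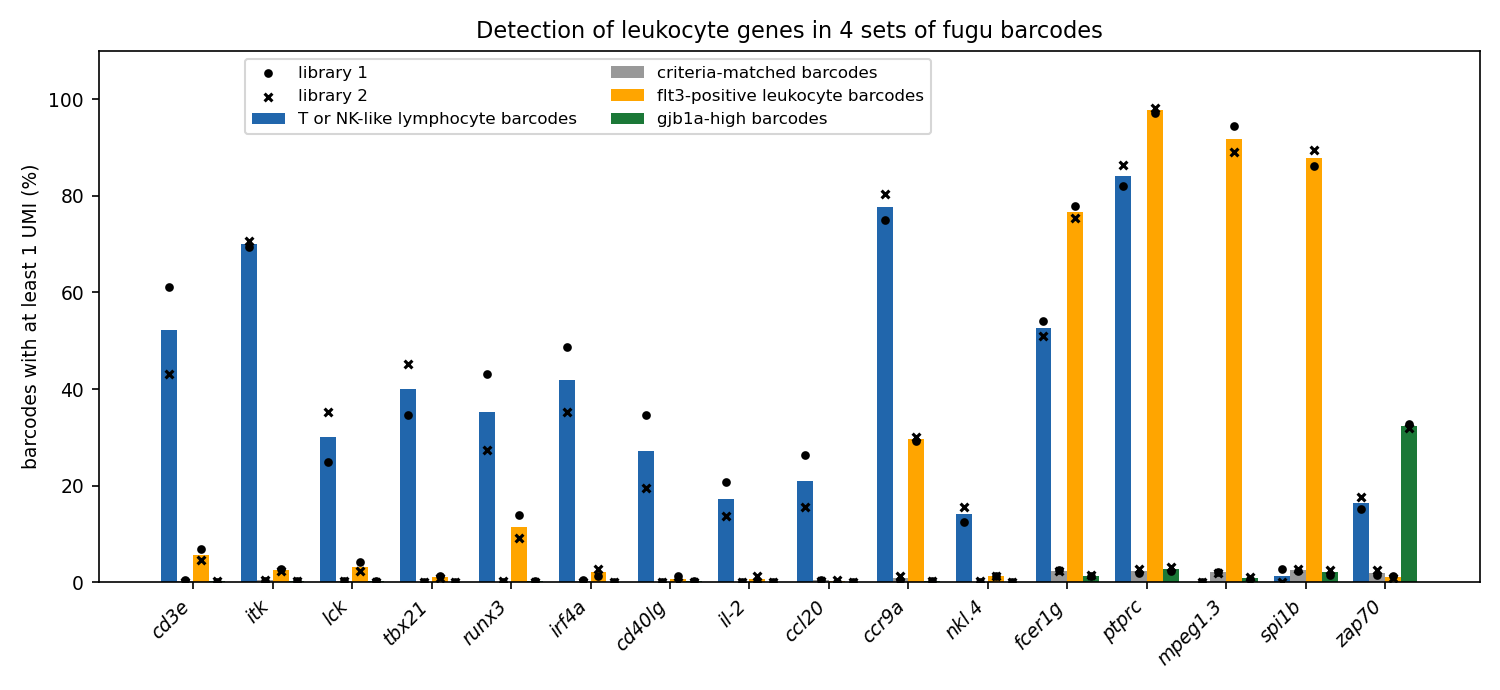
Share of barcodes with at least 1 UMI (y axis, %) of 16 genes in lymphocytes (blue), criteria-matched barcodes (grey), flt3-positive leukocytes (orange) and gjb1a-high barcodes (green). Bars are means of the 2 libraries and points the libraries. For cd3e, itk and ccr9a the lymphocytes stand highest in both libraries, mpeg1.3 is at 0 in lymphocytes, and zap70 is found most often in gjb1a-high barcodes.

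Genes of the killing machinery other than prf1.1 were also higher than in matched barcodes. All 5 tested genes of the cytotoxic granule list were called higher, with a median log2 difference of 5.65. The signalling adaptor gene fcer1g, which serves Fc and NK receptors, stood at 389 and 312 CPM against 13.9 and 17.1 (log2 difference 5.65, SE 0.284, adjusted p = 2.5e-05, edgeR). The gene nkl.4, named for an NK-lysin, an antimicrobial granule peptide, stood at 62.4 and 79.6 CPM against 0.176 and 0.383 (log2 difference 8.92, SE 0.494, adjusted p = 3e-05). It was found in 12.5% and 15.7% of lymphocytes and in 0 of 1217 and 0 of 1100 gjb1a-high barcodes, which allows shares there of up to 0.247% and 0.273%. The death ligand gene faslg gave 11 and 8 UMIs in lymphocytes and 0 in matched barcodes of both libraries, at least 94.4-fold higher when the floor is 3 UMIs over the matched group. The granule transport genes rab27a and stxbp2 differed less, by 3.48 and 2.21 on the log2 scale.

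Lymphocyte transcription factor genes moved in both directions, with 10 of 17 tested genes higher, 2 lower and a median log2 difference of 1.902. The gene tbx21, which encodes T-bet, a driver of type 1 and cytotoxic programmes in mammals, stood at 101 and 118 CPM against 0.176 and 0.192 (log2 difference 10.04, SE 0.39, adjusted p = 1.4e-05, edgeR). Next came irf4a (9.20) and runx3 (8.24), followed by ikzf1 (6.98) and tcf7 (5.19), while ets1 (2.97), tox2 (1.902) and bcl11bb (1.39) differed less. Of this second set, bcl11bb gave 50.1 and 54.2 CPM in matched barcodes beside 57.6 and 66.8 CPM in lymphocytes. Its log2 difference thus rests largely on the TMM scaling, which moved the median of all genes by 1.15. The inhibitor genes id2a and id3 were lower, with log2 differences of -1.49 and -3.19. With plain totals the list gave 9 higher and 4 lower, beside 588 and 4290 of all 6967 genes.

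Chemokine receptors and cytokines formed a further group, with 8 of 9 tested genes higher and a median log2 difference of 7.04. The receptor gene ccr9a, known in mammals for homing of T cells to thymus and gut, was the most widely found, with a UMI in 75.0% and 80.4% of lymphocytes and 0.329% and 0.273% of gjb1a-high barcodes. It stood at 365 and 436 CPM against 0.705 and 2.49 in matched barcodes (log2 difference 9.09, SE 0.452, adjusted p = 2.5e-05, edgeR). The second copy CCR9 (7.80), CXCR3 (6.67), the shared cytokine receptor chain gene il2rg (7.64) and cxcr4b (5.03) were higher too.

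Effector genes of activated T cells were found in fewer barcodes. The ligand gene cd40lg, by which helper T cells stimulate antigen-presenting cells, gave 45 and 20 UMIs in lymphocytes and 0 in matched barcodes, at least 323-fold higher. The growth factor gene il-2 gave 30 and 10 UMIs against 0, at least 199-fold higher. A UMI of cd40lg was found in 34.7% and 19.6% of lymphocytes (27.8% and 11.8% thinned), and one of il-2 in 20.8% and 13.7%. The chemokine gene ccl20 differed between libraries, with 134 and 20 UMIs or 322 and 63.6 CPM, against 1.06 and 0.575 CPM in matched barcodes (log2 difference 9.02, SE 0.876, adjusted p = 0.0004, edgeR). In library 1, 45 of its 134 UMIs came from 1 barcode.

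General leukocyte genes and antigen presentation genes were higher as well. All 21 tested pan-leukocyte genes were higher (median 5.39), led in level by rac2, a GTPase of blood cells, at 1154 and 958 CPM against 10.8 and 25.9. In lymphocytes ptprc stood at 502 and 624 CPM and coro1a at 619 and 582 CPM, with log2 differences of 7.40 and 6.42. Of 10 tested genes for MHC and antigen processing, 9 were higher (median 4.02). They included b2ml, a beta-2-microglobulin gene, by 2.41, the immunoproteasome gene psmb9a by 5.15 and the invariant chain gene cd74a by 4.31 on the log2 scale.

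Among the 15 named genes with the largest differences stood 6 that are in none of the lists. They were gpr184 (11 and 16 UMIs against 0, at least 134-fold higher), adap2 (9.28), dennd1c (9.09), tprg1 (8.87) and lpar2b (8.81), besides il-2. Of the 901 genes that were higher, 217 carry an identifier without a symbol. The most abundant of these, ENSTRUG00000029174, gave 7219 and 3968 UMIs in lymphocytes and 39 and 42 in matched barcodes. It stood at 17320 and 12630 CPM, was found in 83.3% and 90.2% of lymphocytes, and differed by 12.12 on the log2 scale (SE 0.305, adjusted p = 4.8e-06, edgeR).

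Genes of neural cells were lower. Of the oligodendrocyte list 9 of 10 tested genes were lower (median -2.95), with plp1b at 264 and 344 CPM against 5596 and 6255. Of the astrocyte and radial glia list 6 of 12 were lower (median -1.14), and of the neuron list 2 of 13 (median -0.38). The counts of the astrocyte and neuron lists depend on the 15 barcodes without ptprc and coro1a, and that of the oligodendrocyte list much less. With the 108 alone, all 10 oligodendrocyte, all 12 astrocyte and all 13 neuron genes were lower, with medians of -3.90, -4.11 and -3.78 beside -0.43 for all genes. Over all genes tested, 1968 were lower with the 108 alone. The summed neuron list gave 677 and 1651 CPM in all lymphocytes, 80.4 and 144 CPM in the 108, and 3918 and 4132 CPM in matched barcodes. The 5 genes with the most negative log2 differences by the naming rule were fn1a, hoxc6a, fmnl2a, per2 and sbk1, each with 0 UMIs in the lymphocytes of both libraries. The calls of fmnl2a and sbk1 were lost with a minimum of 4500 UMIs (adjusted p = 0.063 for both), and those of per2 (0.053) and sbk1 (0.065) without the lymphocytes of library 1. For fn1a, a fibronectin gene, matched barcodes gave 32.6 and 42.3 CPM, at least 9.08-fold more, and for the position gene hoxc6a 32.4 and 34.3 CPM, at least 8.12-fold more.

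Defining markers of other blood cells were at or near 0, while other genes of their lists were found. The B cell genes cd79a and pax5, the granulocyte genes mpx, lyz and CSF3R and the macrophage genes mpeg1.3 and csf1ra gave 0 UMIs in all 123 barcodes, and the red cell gene alas2 gave 1 and 0. For mpeg1.3 this allows shares of up to 4.17% and 5.88% of lymphocytes. At least 1 UMI of the microglia and macrophage list was found in 63 of 72 and 47 of 51 lymphocytes, and of the dendritic cell list in 46 and 22. For the granulocyte and mast cell list it was 28 and 21, and for the B cell list 8 and 4. The part of these genes in the results was not tested. Of 6 tested genes on the microglia and macrophage list, AIF1 (6.36) and ctss2.2 (4.19) were higher and apoeb (-2.45) was lower against matched barcodes, and the whole list of 17 genes summed to 540 and 563 CPM in lymphocytes and 707 and 832 CPM in matched barcodes.

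Lymphocyte barcodes held fewer genes and more ribosomal protein RNA than any set they were compared with. The median number of genes was 975.5 and 983 in lymphocytes, 2008 and 1948.5 in matched barcodes and 1930 and 1915.5 in gjb1a-high barcodes, at median depths between 5158 and 5556.5 UMIs. Ribosomal protein genes gave 50.5% and 48.0% of their UMIs, against 22.7% and 22.0% in matched and 12.7% and 13.4% in gjb1a-high barcodes. In the 108 with a leukocyte gene the share was 55.9% and 55.3%, and in the other 15 it was 23.1% and 19.5%. Of 71 ribosomal protein genes tested, 68 were higher than in matched barcodes and none was lower by edgeR (0 calls, median 2.28), with 67 higher and 2 lower by plain totals. The part of this share in the TMM shift and in the other differences was not tested.

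**Figure D4:**
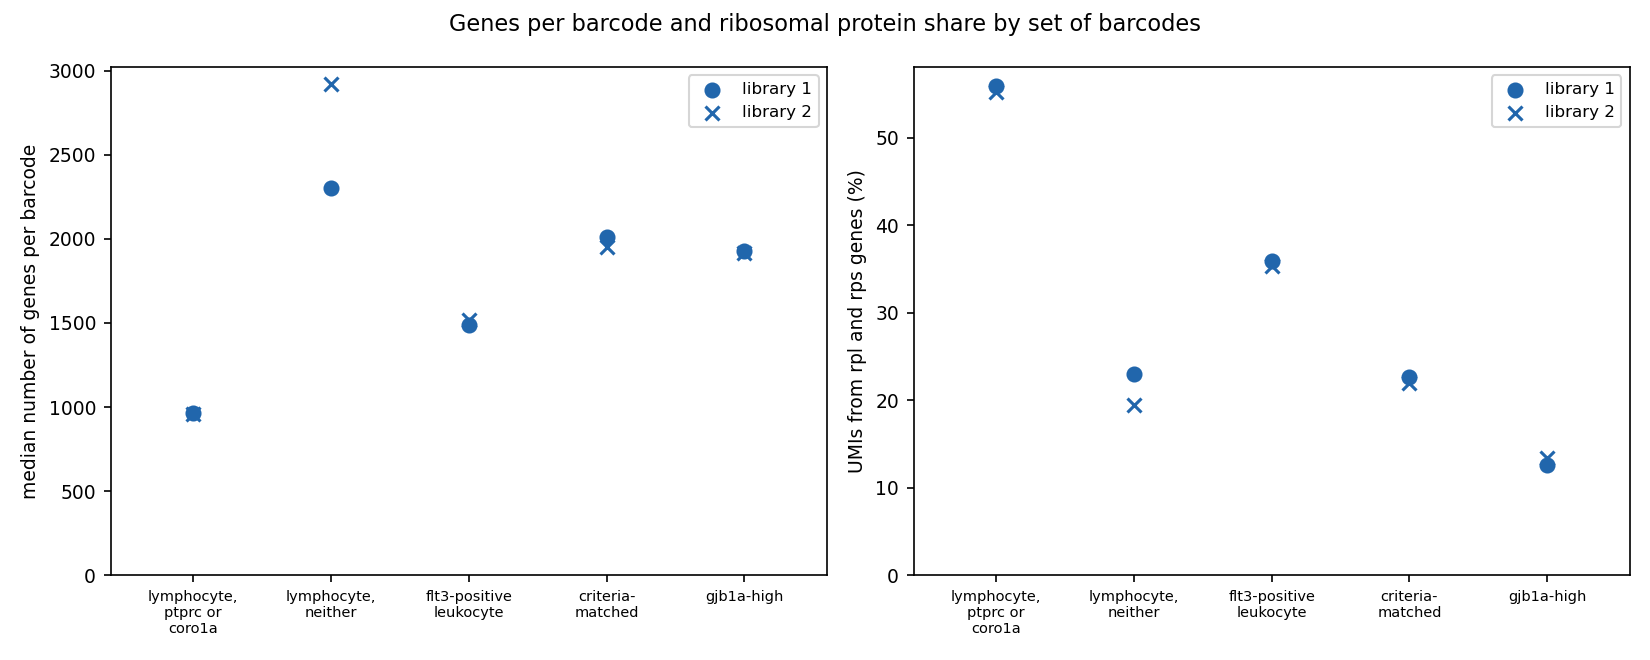
Median number of genes per barcode (left) and percent of UMIs from ribosomal protein genes (right) in 5 sets of barcodes, with a dot for library 1 and a cross for library 2. Lymphocytes with ptprc or coro1a have the fewest genes (964 and 959) and the highest ribosomal share (55.9% and 55.3%), and those with neither lie near the matched barcodes in ribosomal share.

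Early response and cell cycle genes were mixed. Of 18 immediate early genes tested, nr4a1 (3.67), nr4a3 (1.76) and zfp36l1a (1.895) were higher, and socs3a (-3.31) and fosab (-0.58) were lower. The file holds 2 genes under the name nr4a1, and the call belongs to 1 of them. With plain totals the list gave 2 higher and 14 lower, beside 588 and 4290 of all 6967 genes. With the 108 alone it gave 3 higher and 11 lower, beside 1315 and 1968 over all genes tested. The list summed to 3964 and 2972 CPM in all lymphocytes, 2328 and 1877 CPM in the 108, and 8231 and 9370 CPM in matched barcodes. Of 10 cell cycle genes none was called by edgeR (0 calls, median 0.46), with plain totals 3 were lower, and with the 108 alone the replication clamp gene pcna was higher (log2 difference 1.17, SE 0.245, adjusted p = 0.0027). It was also higher against all other barcodes (1.64), flt3-positive barcodes (1.02) and microglia-like barcodes (1.38), the comparisons described next, but with plain totals it was not called against all other barcodes. At least 10 UMIs of the cell cycle list were found in 5 of 63 and 3 of 45 lymphocytes with a leukocyte gene (7.94% and 6.67%) and in 15.9% and 16.9% of matched barcodes.

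The rule names all other kept barcodes, 2538 and 2521, as its own comparison. There 916 of 6419 genes were higher (14.3%) and 883 lower (13.8%), or 541 and 3603 by plain totals. The largest differences were ccl20 (9.59), cd40lg (9.35), sh2d1ab (8.97), tbx21 (8.78) and il-2 (8.63) on the log2 scale. The genes with the most negative differences, hapln2, LURAP1L, HAGHL, ADAMTS14 and nkx6.2, gave 0 UMIs in lymphocytes, and hapln2, a link protein gene of myelinating cells, was at least 115-fold lower. The call of LURAP1L was lost without the percent filter (adjusted p = 0.054) and without the lymphocytes of library 1 (0.08) or of library 2 (0.061). As the rule removes gjb1a-high barcodes, part of this direction is set by the choice of barcodes.

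To compare the lymphocytes with other leukocytes, 292 flt3-positive barcodes (72 and 220) with ptprc or coro1a and under the same gjb1a and slc1a2b limits were taken, a comparison chosen after seeing the data. Those that also carried cd3g/d or prf1.1 were not removed from this set. A UMI of cd3e, itk or tbx21 was found in 7 of 72 and 12 of 220 of its barcodes. In 4736 tested genes, 780 were higher in lymphocytes (16.5%) and 799 lower (16.9%), or 1283 lower by plain totals. The rule demands 0 UMIs of flt3 in lymphocytes and this set was chosen by flt3. Part of the direction of genes that go with flt3 may thus be set by the choice of barcodes, which was not tested. Of the microglia and macrophage list 7 of 8 tested genes were lower, with a median of -3.39 beside -0.06 for all genes. The sum of that list was 540 and 563 CPM in lymphocytes and 3468 and 4119 CPM in flt3-positive barcodes. The transcription factor gene spi1b, which directs myeloid fate, gave 2 and 0 UMIs in lymphocytes and 309 and 1255 in flt3-positive barcodes, a log2 difference of -7.77 (SE 0.493, adjusted p = 5.1e-06, edgeR). The pore protein gene mpeg1.3 gave 0 against 403 and 1013 UMIs and was at least 197-fold lower, and rbm47 at least 40.0-fold lower. The invariant chain gene cd74a was lower (log2 difference -3.02), at 151 and 140 CPM against 1552 and 1596.

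On the other side stood genes of T and NK cells. The gene itk stood at 331 and 258 CPM in lymphocytes against 7.06 and 4.51 in flt3-positive barcodes (log2 difference 6.17, SE 0.377, adjusted p = 4.3e-06, edgeR). The largest differences were ccl20 (8.40), cd40lg (7.18) and sh2d1ab (6.59), and cd3e (4.09), tbx21 (4.50), bcl11bb (5.01) and tcf7 (4.52) were higher as well. For ccr9a the difference was 2.93, with UMIs in 29.2% and 30.0% of flt3-positive barcodes. Of 16 lymphocyte transcription factor genes 9 were higher and 3 lower (median 2.86).

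Not every gene read as a lymphocyte gene was particular to them among leukocytes. Of 13 genes of the receptor signalling list 5 were higher (skap1, zap70, itk, sh2d1ab, lck) and 4 lower (nfatc2a, VAV1, RASGRP1, sla1a), and the summed list of 18 genes was lower in lymphocytes, at 900 and 894 CPM against 1992 and 1773. Of 8 tested cytotoxic granule genes 2 were higher (rab27a, faslg) and 3 lower (prf1.6, ctsc, stxbp2), with a median of -0.90. Of 11 tested genes of the cytokine and chemokine list 3 were higher (cxcr4b, ccr9a, ccl20) and 3 lower (CXCR3, tnfb, il10ra). That whole list of 30 genes summed to 960 and 761 CPM in lymphocytes against 1603 and 2464. The adaptor gene fcer1g stood at 389 and 312 CPM against 652 and 598, a log2 difference of -0.41 (SE 0.207, adjusted p = 0.16, edgeR). With the 108 leukocyte barcodes alone it was 0.28 (adjusted p = 0.26). For runx3 the log2 difference was 0.00 (SE 0.341, adjusted p = 1.0). Of 22 pan-leukocyte genes 0 were higher and 11 lower by edgeR (median -0.89), and with the 108 alone 6 were higher and 6 lower. Ribosomal protein genes were higher in 63 of 70. Of 13 tested immediate early genes 2 were higher (zfp36l1a, fosab) and 5 lower (egr3, NR4A1, nr4a3, egr1, socs3a), with a median of -0.58. All 3 neuron genes tested were higher here, snap25a among them (2.95), and with the 108 alone snap25a differed by -0.09 (adjusted p = 0.92).

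A smaller set, chosen by at least 3 UMIs of csf1ra and ctss1 under the same gjb1a and slc1a2b limits, held 7 and 31 barcodes. It had no condition on flt3, ptprc or coro1a, and flt3-positive barcodes with cd3g/d or prf1.1 were not removed from it. Against these microglia-like barcodes 344 of 4982 genes were higher (6.90%) and 445 lower (8.93%). The log2 difference of cd3e was 2.01 here and 9.22 against matched barcodes. The transcription factor genes cebpb, MAF, irf4a, znf219 and tbx21 and the chemokine gene ccl20 gave 0 UMIs in microglia-like barcodes, and tbx21 was at least 8.38-fold higher and ccl20 at least 16.3-fold higher in lymphocytes. The gene mpeg1.3 was at least 123-fold lower.

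Within the lymphocytes, cd3g/d divided the barcodes. Among the 108 with a leukocyte gene, prf1.1 was found in 62 of 63 and 43 of 45. The rule puts prf1.1 in every barcode without cd3g/d, and 45 of 46 and 23 of 25 with cd3g/d held it. A UMI of cd3e was found in 44 of 46 and 20 of 25 barcodes with cd3g/d and in 0 of 17 and 2 of 20 without. The gene nkl.4 ran the other way, in 2 of 46 and 2 of 25 barcodes with cd3g/d and in 7 of 17 and 6 of 20 without. For fcer1g the counts were 23 of 46 and 9 of 25 with cd3g/d and 16 of 17 and 17 of 20 without. The set without cd3g/d, where perforin is set by the rule, thus held the NK-lysin and fcer1g genes more often and little cd3e.

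The 45 and 23 barcodes with both rule genes were then tested against the 17 and 20 with prf1.1 alone, all with ptprc or coro1a, a comparison chosen after seeing the data. Median depth was 5486 and 5111 UMIs in the former and 4123 and 4975 in the latter, and with each barcode thinned to 3000 UMIs 3 genes were higher and 7 lower, all among those called below. Of 3197 genes 7 were higher with both genes (0.219%) and 11 lower (0.344%), and with the library as a replicate block 14 and 15. The counts of cd3e, nkl.4 and fcer1g given above came from largely the same barcodes, split by the rule gene cd3g/d. Every p-value of this comparison rests on that split by a gene of the rule. The p-values here are thus descriptions and add no separate support. The gene cd3e stood at 509 and 307 CPM with both genes and 0 and 63.2 CPM with prf1.1 alone (log2 difference 3.81, SE 0.47, adjusted p = 1.8e-12, edgeR). It was found in 95.6% and 78.3% of the barcodes with both genes (77.8% and 47.8% thinned) and in 0% and 10.0% of the others. The chemokine gene ccl20 was higher by 2.77 (adjusted p = 1e-06), at 486 and 89.9 against 73.8 and 31.6 CPM. The gene ENSTRUG00000003918, which has no symbol, was higher by 2.32 (SE 0.286, adjusted p = 1.8e-12, edgeR), at 1397 and 996 against 295 and 263 CPM. By the naming rule casq2, a calsequestrin gene, was called too, with 16 and 6 UMIs against 0 (at least 3.26-fold, adjusted p = 0.022), a call that held in 3 of 11 alternatives and was lost with DESeq2 (1.0), without TMM (0.082) and after thinning (0.51).

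In the barcodes with prf1.1 alone, fcer1g stood at 1045 and 853 CPM against 266 and 127 with both genes, a log2 difference of -1.99 (SE 0.292, adjusted p = 1.3e-08, edgeR). It was found in 94.1% and 85.0% of them and in 48.9% and 39.1% of those with both genes. The NK-lysin gene nkl.4 stood at 221 and 189 CPM against 30.4 and 52.4 (log2 difference -2.17, SE 0.482, adjusted p = 0.0019). The kinase gene zap70 stood at 123 and 105 CPM against 19.0 and 0 (log2 difference -2.92, SE 0.689, adjusted p = 0.0049, edgeR). The calls of nkl.4 and zap70 each held in 5 of 11 alternatives, that of ccl20 in 6, that of cd3e in 8 and those of fcer1g and ENSTRUG00000003918 in 9. Lower with both genes were also ints4 (-3.46, lost with DESeq2 at an adjusted p of 1.0 and after thinning at 0.51) and the unnamed ENSTRUG00000027943 (-4.08), while ENSTRUG00000014929 gave 19 and 5 UMIs with prf1.1 alone and 0 with both.

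Most lymphocyte genes were not called between these subsets, as were most of all genes tested (0.219% higher and 0.344% lower). As 30.8% of simulated 4-fold changes were found in this comparison, a missing call does not show equal levels. For itk the log2 difference was -0.03 (SE 0.303), for lck 0.13 (SE 0.506), for tbx21 -0.30 (SE 0.411), for ccr9a -0.09 (SE 0.284) and for cd40lg -0.26 (SE 0.445), each with an adjusted p between 0.89 and 0.98. Of 14 lymphocyte transcription factor, 20 pan-leukocyte and 70 ribosomal protein genes 0 were called by edgeR, where 208 of the 3197 genes had an unadjusted p under 0.05. With DESeq2, 1 gene was higher and 3 lower, fcer1g among the latter, while cd3e (adjusted p = 1.0), ccl20 (0.74), nkl.4 (1.0) and zap70 (1.0) lost their calls. Without the sum of prf1.1-only barcodes of library 1 or of library 2 no gene was called (0 and 0), so cd3e and fcer1g lost their calls there, with adjusted p of 0.19 and 0.67 and of 0.30 and 0.76. Without library 1 of the barcodes with both genes, the ccl20 difference was 1.06 (adjusted p = 0.95) and the nkl.4 difference -1.68 (adjusted p = 0.54). Without library 2 of the same barcodes, the zap70 difference was -2.35 (adjusted p = 0.14).

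**Figure D5:**
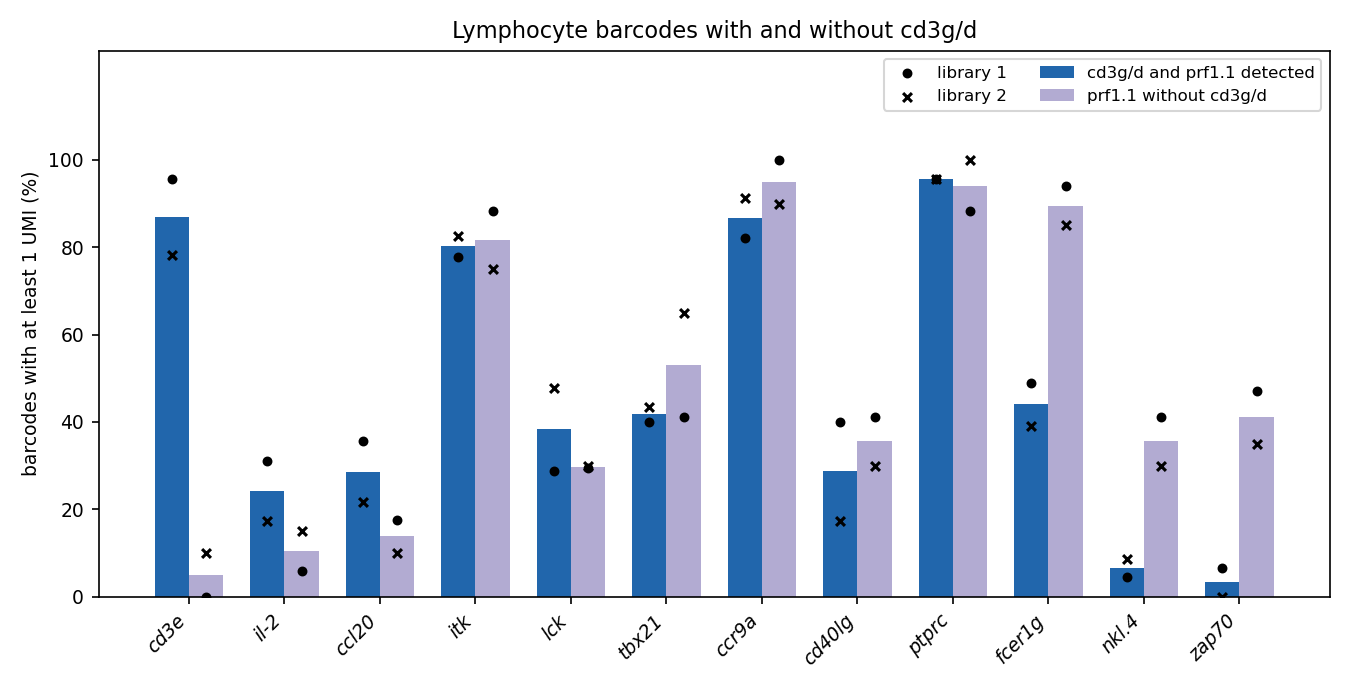
Share of barcodes with at least 1 UMI (y axis, %) of 12 genes in lymphocytes with both cd3g/d and prf1.1 (blue, 45 and 23 barcodes) and with prf1.1 alone (lilac, 17 and 20), all with ptprc or coro1a. Bars are means of the 2 libraries and points the libraries. The libraries of the 2 sets do not overlap for cd3e, ccl20, il-2, fcer1g, nkl.4 and zap70, and they overlap for itk, tbx21 and cd40lg. With 2 values in each set such separation can arise without a difference. Its share among all genes is not given, so it is a description only.

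The 15 barcodes with cd3g/d alone were set against the 40 with prf1.1 alone in a fit with all 3 subsets. Of 7740 genes 87 were higher (1.12%) and 235 lower (3.04%) with cd3g/d alone. The largest differences were TENM2, id1, sox8, cpne8, kcnq2a and cpne5b, of which sox8 belongs to glia and kcnq2a to neurons, all with 0 UMIs in barcodes with prf1.1 alone. Lower were nkl.4, zgc:152863, ptpn6, tbx21, cyth4a and cd40lg, all with 0 UMIs in barcodes with cd3g/d alone. As 12 of the 15 are the barcodes without ptprc and coro1a described above, this contrast sets mostly neural barcodes against lymphocytes, and with a minimum of 4500 UMIs it gave 0 calls by edgeR.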

How the data were processed

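The deposited values were UMI counts per gene and barcode over all barcodes of both fugu libraries, obtained by the authors by running Cell Ranger 7.2.0 against the Takifugu rubripes genome of Ensembl release 113. The authors applied no cell filter to these files. The libraries held 1214749 and 1223695 barcodes, and their summed counts differed by a chi-square of 18.6 per degree of freedom, more than counting error. No gene coordinates or sequences were used here.

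Barcodes with more than 3000 UMIs were kept, and doublets were left in the main analysis. In an alternative, the authors' gene minimums (90 and 80) and Scrublet in scanpy 1.11.5, set to the top scores, removed none of the lymphocytes. Counts were summed per library and group and tested with edgeR 4.0.16 (TMM, quasi-likelihood, R 4.3.3), keeping genes detected in 10% or more of either group, at a Benjamini-Hochberg adjusted p under 0.05. The lymphocyte rule and the 20 gene lists were chosen with earlier results of these data known. Named genes were listed genes, the 15 largest and 5 smallest log2 differences among named, called genes with at least 10 UMIs per sum (6 and 6 for the other comparisons, with at least 5 within the lymphocytes), and the most abundant unnamed genes. The rule's 5 genes, and ptprc and coro1a where they chose barcodes, were not tested. A fold against 0 counts used a floor of 3 UMIs over the group. Shares were also computed after each barcode was thinned to 3000 UMIs.

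Sums of 1 library come from the same animals, so the library pairs them by design. Their deviations correlated by 0.0373 against all other barcodes and 0.170 against matched barcodes. Alternatives were DESeq2 1.42.0, no TMM, no percent filter, the replicate block, thinning, 4500 UMIs, stricter rules and each sum left out. On simulated data with 200 genes changed 4-fold, edgeR found 78.5% in the comparison with all other barcodes, 91.5% with matched, 31.5% with microglia-like and 78.5% with flt3-positive barcodes, 30.8% of 198 between barcodes with both genes and with prf1.1 alone, and 1% between those with cd3g/d alone and with prf1.1 alone.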

Additional observations from a re-analysis of the deposited data

How the results depend on the processing

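As a mean of the 2 libraries, the share of lymphocyte barcodes was 2.37%, and 2.08 to 2.44% under the alternatives that kept both libraries. Leaving out a library only returns the value of the other. With a leukocyte gene demanded, library 2 gave 1.75%. The neuron list gene syt1a turned from 1.34 (adjusted p = 0.037, edgeR) against all other barcodes to -3.80 (adjusted p = 0.0055) with a leukocyte gene demanded. Comparisons with flt3-positive barcodes and between barcodes with both genes and with prf1.1 alone, and the demand for ptprc or coro1a, were chosen after seeing the data. Against all other barcodes, calls were 541 higher and 3603 lower without TMM, 590 higher without the percent filter, and 1575 and 1757 lower with at least 2 UMIs of the rule genes and with a leukocyte gene. Leaving out each sum gave 683 to 968 higher and 644 to 894 lower. Against matched barcodes, calls were 588 higher and 4290 lower without TMM, and lower calls were 698 without the percent filter, 254 with the replicate block, 219 with a minimum of 4500 UMIs, 1786 with at least 2 rule UMIs and 1968 with a leukocyte gene. Leaving out each sum gave 670 to 1111 higher and 190 to 757 lower. Of the genes called higher, 773 of 778 under the block and 898 of 1315 with a leukocyte gene were shared with the 901. Against microglia-like barcodes, higher calls were 105 with DESeq2, 203 without TMM, 170 without the percent filter, 191 with 4500 UMIs and 151 to 431 on leaving out a sum, and lower calls 169 with DESeq2 and 247 to 510. Against flt3-positive barcodes, lower calls were 498 with DESeq2 and 1283 without TMM, and leaving out each sum gave 564 to 734 higher and 533 to 752 lower. For cd3g/d alone against prf1.1 alone, calls higher and lower were 10 and 106 with DESeq2, 11 and 29 without TMM, 14 and 104 without the percent filter, 137 and 358 after thinning, 0 and 0 with 4500 UMIs, and 29 to 140 and 137 to 349 on leaving out a sum. For both genes against prf1.1 alone they were 1 and 3 with DESeq2, 4 higher without TMM, 2 and 7 without the percent filter, 14 higher with the replicate block, 3 and 7 after thinning, and 0 to 9 and 0 to 11 on leaving out a sum. In a fit that left out a sum, the lone sum of that group was assumed to vary like the other group. The replicate block moved no other count of calls by over 1.5 times. The cause of these shifts was not tested.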
